A study of Mus musculus with 18 samples.

Results

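The Serpina1 and Serpina3 gene clusters of mouse liver were followed after partial hepatectomy. The members were the 9 genes with the symbols Serpina1a, Serpina1b, Serpina1c, Serpina1d, Serpina1e, Serpina3g, Serpina3k, Serpina3m and Serpina3n, of 17180 genes listed in at least 1 library. They were taken by symbol, 5 from the Serpina1 cluster and 4 from the Serpina3 cluster. No rule on measured values was used, but earlier results of these data were known when they were chosen. The study sampled liver RNA from C57BL/6 mice along the regrowth that follows removal of 2/3 of the organ.

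There were 9 groups, all of strain C57BL/6 with no altered allele in the labels: a sham operation, and partial hepatectomy with collection 0.5, 2, 4, 24, 48, 72, 120 or 168 h later. Each group held 2 libraries (n = 2), and each library was RNA of 3 mice combined, so the spread below is that between pools and a single animal is not seen. Sex, age and the time at which sham liver was collected are not in the labels, so resection and time of day cannot be told apart in a difference from sham. Whether the pools of a group came from separate operations is not stated, so p-values measure only the spread between these pools.

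Serpins are protease inhibitors that present an exposed reactive loop as bait. A protease that cuts the loop is trapped in a covalent complex, and the sequence of the loop sets which protease is caught. Hepatocytes secrete the Serpina1 products (alpha-1 antitrypsin), whose best known target is neutrophil elastase, and several of the Serpina3 products, relatives of human alpha-1 antichymotrypsin. Humans have 1 gene for each, whereas both clusters multiplied in rodents. Some of these genes belong to the acute phase response, in which liver cells exposed to interleukin-6 and similar signals change the proteins they put into plasma.

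The copies were less alike in the loop than over the whole reading frame, so that stretch shows how members that look nearly alike in RNA can be told apart. The 5 Serpina1 stretches below, of 81 bases each, are coding sequence from GENCODE M21 (GRCm38) that runs from the hinge of the reactive loop to its end, and capitals mark the 18 positions at which the paralogs were not all the same.

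Serpina1a: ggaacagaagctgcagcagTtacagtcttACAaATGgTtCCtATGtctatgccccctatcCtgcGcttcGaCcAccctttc
Serpina1b: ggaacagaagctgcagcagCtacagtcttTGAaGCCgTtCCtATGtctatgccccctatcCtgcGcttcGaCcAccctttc
Serpina1c: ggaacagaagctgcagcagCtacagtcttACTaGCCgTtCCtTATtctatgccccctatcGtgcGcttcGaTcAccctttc
Serpina1d: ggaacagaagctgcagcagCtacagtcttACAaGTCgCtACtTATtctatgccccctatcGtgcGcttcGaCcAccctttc
Serpina1e: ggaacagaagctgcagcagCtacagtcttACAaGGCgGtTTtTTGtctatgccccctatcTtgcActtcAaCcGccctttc

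Over their aligned reading frames the Serpina1 pairs, 10 in all, shared 96.3% to 98.5% of bases, against 85.2% to 93.8% in the loop stretch. In the Serpina3 stretches the hinge and the end were nearly alike and the bases between them differed in letters and in length. Capitals mark those bases between the shared ends, 45 in Serpina3k and 51 in each of the others.

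Serpina3g: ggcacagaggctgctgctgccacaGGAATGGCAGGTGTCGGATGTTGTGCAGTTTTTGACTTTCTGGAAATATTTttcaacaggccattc
Serpina3k: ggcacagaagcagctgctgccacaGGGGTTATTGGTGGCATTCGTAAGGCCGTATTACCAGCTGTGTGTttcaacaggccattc
Serpina3m: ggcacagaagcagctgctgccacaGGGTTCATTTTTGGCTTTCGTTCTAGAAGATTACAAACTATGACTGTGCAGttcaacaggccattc
Serpina3n: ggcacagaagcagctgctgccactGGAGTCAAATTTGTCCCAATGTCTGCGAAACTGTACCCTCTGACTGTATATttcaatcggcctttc

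The 6 Serpina3 pairs shared 81.9% to 91.8% of aligned frame bases and 64.4% to 81.0% in the loop stretch. The closest pair was Serpina3k and Serpina3m, at 91.8% of the frame. The transcript used for Serpina3g has a frame of 747 bases, shorter than the 1257 bases of the other Serpina3 members, so its identity covers the part that aligned.

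All members lie on chromosome 12 (GRCm38.p6). The Serpina1 genes are on the minus strand: Serpina1b at 103728156 to 103738189, Serpina1d at 103763587 to 103773633, Serpina1a at 103853295 to 103863619, Serpina1c at 103894926 to 103904950 and Serpina1e at 103946931 to 103956897. GENCODE M21 has 6 pseudogenes among them. The Serpina3 genes are on the plus strand: Serpina3g at 104236147 to 104241939, Serpina3k at 104338486 to 104345739, Serpina3m at 104387157 to 104394259 and Serpina3n at 104406646 to 104414334.

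The deposited counts were of reads mapped uniquely, so the likeness of the copies limits which of their bases could be counted. The percent of a gene's length covered by reads, as deposited, was lowest in Serpina1c, at 38.8% to 40.0% over the libraries. It was 56.6% to 61.4% in Serpina1a, 69.9% to 74.7% in Serpina1b, 74.4% to 74.8% in Serpina1d and 83.1% to 83.4% in Serpina1e. Serpina1c was nonetheless counted at 2862 to 5075 CPM (counts per 1000000 reads, after the TMM scaling between libraries). Sequence alone put Serpina1c lowest as well. In the transcript of Serpina1c 28.1% of bases lay under 50-base words found in no other gene's transcripts, and 40.0% under such words of 100 bases. The corresponding values were 49.5% and 66.2% for Serpina1a and 82.3% and 97.3% for Serpina1e. The Serpina3 members were less alike: 93.5% (Serpina3m) to 99.8% (Serpina3n) of bases lay under unique words of 50 bases. Under such words of 100 bases each had 100%. Their deposited coverage was 93.0% to 93.1% in Serpina3k, 91.3% to 92.9% in Serpina3m and 98.7% to 99.8% in Serpina3n, and 45.6% to 88.0% in the scarce Serpina3g.

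**Figure D1:**
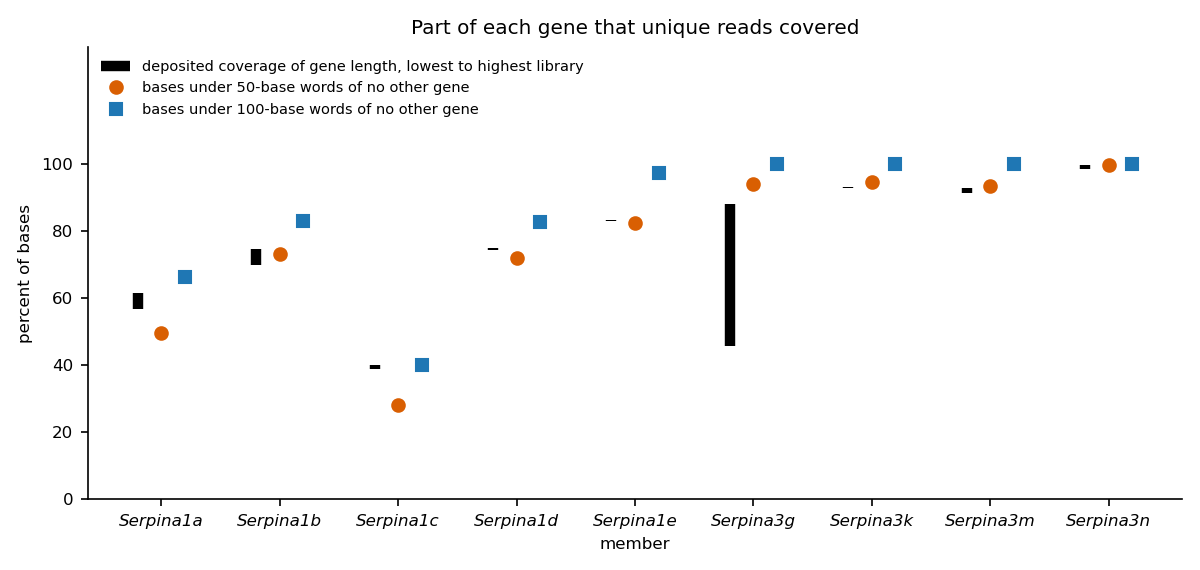
Percent of bases for each member (horizontal axis), where black bars give the deposited coverage of gene length from the lowest to the highest library, circles and squares the bases under words of 50 and 100 bases that no other gene's transcripts hold. Serpina1c is lowest on every measure, at 38.8% to 40.0% by reads.

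Some exon bases belong to 2 genes, and the sources used here do not say whether the libraries kept strand. GENCODE M21 has a transcript of Serpina3m that starts in the first exon of Serpina3k, which gives the genes 60 exon bases in common, and 429 exon bases of Serpina1c lie opposite the antisense gene B430119L08Rik. The split of reads within each cluster is therefore uncertain, and the clusters are also given as sums. Reads that fit several copies were not counted, and a sum does not recover them. The Serpina1 sum thus weighs Serpina1e, with more unique bases, above copies such as Serpina1c.

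The libraries held between 7.78 and 9.16 times 1000000 reads. The tables of 16 libraries were complete, while that of sham pool 2 ended at a count of 52 and that of 0.5 h pool 1 at a count of 157. Of the members, 8 were listed in all 18 libraries and were tested there among 4906 genes. Serpina3g was unlisted in the short tables and was tested in the 16 complete libraries among 12199 genes, where sham and 0.5 h were left with 1 library, taken to vary as the other groups did. Levels are given as CPM, or as RPKM (per kilobase of gene as well) where genes are compared, and differences as log2 fold changes ± SE. Tests were edgeR's quasi-likelihood F tests, with p adjusted by Benjamini-Hochberg and called at 0.05. Scaled by totals alone, the median gene shifted (log2) to -0.17 at 2 h and -0.37 at 4 h, then to 0.11 at 24 h and 0.15 at 48 h, against -0.02 to 0.02 with TMM, so a difference is relative to the median gene. The hepatocyte markers, 10 of 10 listed in every library, summed to between 78629 and 170291 CPM. In whole liver, fewer cells of a type and less RNA per cell cannot be told apart.

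In sham liver Serpina1e and Serpina3k were among the most abundant messages of the organ. Per length, Serpina1e had 14290.2 and 13522 RPKM in the sham pools, places 2 and 3 among all genes, and Serpina3k 11781 and 11553 RPKM, place 5 in both. The other Serpina1 genes followed at mean RPKM levels of 3368 (Serpina1b), 3209 (Serpina1c), 2273 (Serpina1d) and 1867 (Serpina1a). Serpina1b and Serpina1c overlapped between the sham pools in RPKM and did not differ beyond their spread. Serpina3n had a mean of 607 RPKM, Serpina3m 222, and Serpina3g 3.23 in the 1 sham library that listed it. RPKM was computed on the whole gene length, not on the bases that unique reads can reach, so the order of the Serpina1 copies is uncertain. Both clusters together took 5.61% and 5.65% of the reads of the sham libraries. The lowest share was 2.25%, in 72 h pool 2, and the highest 6.15%, in 2 h pool 2.

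**Figure D2:**
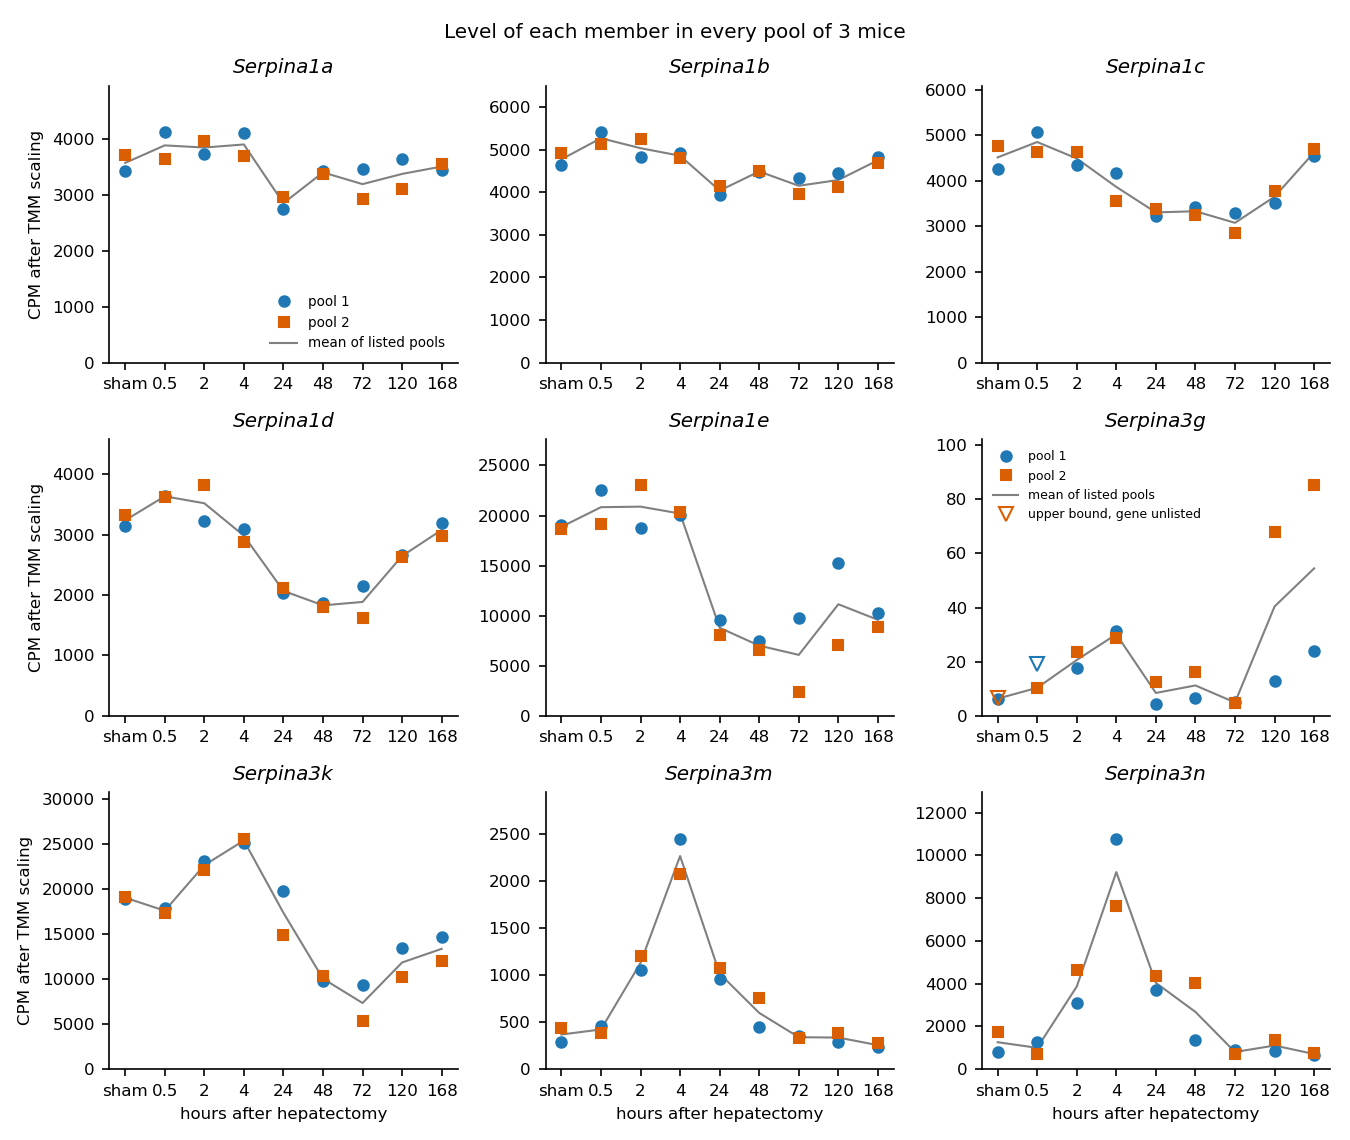
CPM after TMM scaling (vertical axis, linear, from 0) against the sampling times for each member, with 1 point per pool of 3 mice and a line through the means; open triangles give the most that the unlisted Serpina3g could have had by library total. Serpina3n and Serpina3m peak at 4 h, Serpina3k and Serpina1e are lowest in 72 h pool 2, and Serpina3g is high in pool 2 at 120 and 168 h.

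Serpina3n and Serpina3m rose from 2 to 24 h and were called in neither direction from 72 h on. Serpina3k, Serpina1e, Serpina1d and Serpina1c fell at 48 and 72 h, by up to 1.63 on the log2 scale, and Serpina1a and Serpina1b were called against sham at no time. Over the whole course, the 9 groups differed for 7 of the 9 members by edgeR, where 68.6% of the genes in 18 libraries and 42.8% in 16 did. The exceptions were Serpina1a (adjusted p = 0.102) and Serpina1b (adjusted p = 0.0908).

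Serpina3n encodes a secreted inhibitor of chymotrypsin-like proteases, granzyme B and cathepsin G among its known targets. Its sham pools stood at 799 and 1717 CPM and the 0.5 h pools at 1262 and 729 CPM. The level was 3078 and 4648 CPM at 2 h, 10792 and 7651 CPM at 4 h, and 3725 and 4349 CPM at 24 h. These 6 libraries all lay above both sham pools. At 48 h the pools were apart, at 1344 and 4008 CPM, and they overlapped with sham. The last times gave 903 and 697 CPM (72 h), 847 and 1358 CPM (120 h), and 644 and 768 CPM (168 h). By 168 h both pools were thus below both sham pools, without passing the test. In edgeR's fit Serpina3n rose by 1.62 ± 0.47 at 2 h (adjusted p = 0.05, just under the threshold), 2.87 ± 0.50 at 4 h (adjusted p = 0.000609) and 1.68 ± 0.47 at 24 h (adjusted p = 0.0265). The fold at 4 h was 7.33. At 48 h the value was 1.09 ± 0.47 (adjusted p = 0.0838). The call at 2 h was lost in 17 of 28 alternatives, with adjusted p between 0.00989 and 0.358 over all of them. It was lost on leaving out any single library but sham pool 2 and the 48 h pools, with the highest p without sham pool 1 and the next, 0.235, without 2 h pool 2. The call at 24 h was lost in 3, among them without sham pool 1 (adjusted p = 0.208) and without 24 h pool 2 (adjusted p = 0.0941).

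Serpina3m, the neighbour of Serpina3n on the chromosome, had the smallest p of the members over the whole course (adjusted p = 4.02e-06, edgeR). The level was 293 and 442 CPM in sham, 458 and 384 CPM at 0.5 h, 1058 and 1199.5 CPM at 2 h, and 2451 and 2079 CPM at 4 h. It was then 954 and 1076 CPM at 24 h, 443 and 751 CPM at 48 h, 349.9 and 328 CPM at 72 h, 285 and 385 CPM at 120 h, and 229.6 and 279 CPM at 168 h. From 2 to 48 h every library lay above both sham pools, though at 48 h the lower pool did so by under 1 CPM. Serpina3m rose by 1.62 ± 0.25 at 2 h (adjusted p = 0.00126), 2.62 ± 0.26 at 4 h (adjusted p = 9.94e-06), 1.47 ± 0.25 at 24 h (adjusted p = 0.0022) and 0.70 ± 0.25 at 48 h (adjusted p = 0.0398) by edgeR. The 48 h call was lost in 6 of 28 alternatives: without sham pool 1 (adjusted p = 0.293), without 48 h pool 2 (0.454), without either 4 h pool (0.0501 each), with unlisted genes as 0 and no filter (0.137) and with only the groups compared (0.0775). The calls at 2, 4 and 24 h held in all 28.

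Between successive times, Serpina3m rose from 0.5 to 2 h (1.42 ± 0.25, adjusted p = 0.00265) and again from 2 to 4 h (1.0 ± 0.25, adjusted p = 0.0178, lost without either 2 h pool or 4 h pool 1), and fell from 4 to 24 h (-1.16 ± 0.25, adjusted p = 0.00292) by edgeR. Serpina3n rose from 0.5 to 2 h (1.96 ± 0.48, adjusted p = 0.0169), a call lost without 0.5 h pool 2 (0.126) or 2 h pool 2 (0.0777). Its later steps, 1.26 ± 0.47 from 2 to 4 h and -1.19 ± 0.47 from 4 to 24 h, had adjusted p = 0.0896 and 0.0637. Up to 24 h the estimates of Serpina3n and Serpina3m against sham lay within 1 SE of each other, apart from 0.5 h, though the difference between the genes was not tested.

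Serpina3k, which encodes a kallikrein-binding inhibitor, made up most of the Serpina3 reads and had another course. It stood at 18923 and 19163 CPM in sham, 17869.6 and 17318 CPM at 0.5 h, 23172 and 22137 CPM at 2 h, and 25169.7 and 25612 CPM at 4 h. The 2 h and 4 h libraries were above both sham pools, yet 0.25 ± 0.23 at 2 h and 0.42 ± 0.23 at 4 h (adjusted p = 0.18, edgeR) did not pass the test. The separation at 4 h depends on the scaling. As a percent of library reads, the 4 h pools, at 1.93% and 2.03%, overlapped the sham pools, at 1.95% and 1.91%. The level was 19814 and 14910.4 CPM at 24 h, 9740.2 and 10344 CPM at 48 h, 9368 and 5315 CPM at 72 h, 13407 and 10281 CPM at 120 h, and 14720.0 and 12003 CPM at 168 h. From 48 h on every library was below both sham pools. Serpina3k fell by 0.92 ± 0.23 at 48 h (adjusted p = 0.00838) and by 1.38 ± 0.23 at 72 h (adjusted p = 0.00291) in edgeR's fit. At 120 h the difference was -0.69 ± 0.23 (adjusted p = 0.21) and at 168 h -0.51 ± 0.23 (adjusted p = 0.166), neither called. The fall between 24 and 48 h was -0.79 ± 0.23 (adjusted p = 0.0392), a call lost without either sham pool, 24 h pool 1 or either 48 h pool (adjusted p of 0.0521 to 0.281). Leaving out 48 h pool 1 took the 48 h call to adjusted p = 0.0529, and the call at 72 h held in all 28 alternatives.

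Serpina1e, the most abundant Serpina1 gene, had the largest called changes of its cluster. The sham pools stood at 19090.3 and 18654 CPM, and up to 4 h the libraries ranged between 18760.1 CPM (2 h pool 1) and 23019 CPM (2 h pool 2). From 24 h on it was lower in every library: 9543 and 8043 CPM at 24 h, 7447 and 6579 CPM at 48 h, 9767 and 2412 CPM at 72 h, 15228 and 7057 CPM at 120 h, and 10266 and 8912 CPM at 168 h. None of these 10 libraries overlapped sham. Serpina1e fell by 1.43 ± 0.46 at 48 h (adjusted p = 0.0283) and by 1.63 ± 0.47 at 72 h (adjusted p = 0.0354) by edgeR, folds of 2.69 and 3.10 below sham. The difference was -1.10 ± 0.46 at 24 h (adjusted p = 0.117), -0.76 ± 0.46 at 120 h (adjusted p = 0.411) and -0.98 ± 0.46 at 168 h (adjusted p = 0.18), none called. Without 72 h pool 2 the value at 72 h was -0.93 with adjusted p = 0.188, and that call was also lost without sham pool 1 (0.133) or sham pool 2 (0.112). The 48 h call was lost in 6 of 28 alternatives, among them when either sham pool or either 48 h pool was left out, with adjusted p of 0.0768 to 0.14.

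Serpina1d and Serpina1c were called lower at 24, 48 and 72 h, with smaller estimates. Serpina1d stood at 3147 and 3331 CPM in sham, 3643 and 3629.7 CPM at 0.5 h, 3224 and 3818 CPM at 2 h, and 3096 and 2873 CPM at 4 h. It had 2029 and 2111 CPM at 24 h, 1864 and 1797 CPM at 48 h, and 2147 and 1626 CPM at 72 h. The 120 h pools were at 2658 and 2639 CPM, and the 168 h pools, at 3187 and 2973 CPM, overlapped sham again. It fell by 0.65 ± 0.14 at 24 h (adjusted p = 0.00828), 0.82 ± 0.14 at 48 h (adjusted p = 0.001) and 0.78 ± 0.14 at 72 h (adjusted p = 0.00428) by edgeR. The 48 h call of Serpina1d held in all 28 alternatives, while that at 24 h was lost without sham pool 2 (adjusted p = 0.0584) and that at 72 h without 72 h pool 2 (adjusted p = 0.073).

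Serpina1c had 4262 and 4774 CPM in sham, 5075 and 4639 CPM at 0.5 h, 4349.5 and 4638 CPM at 2 h, and 4183 and 3553 CPM at 4 h. It had 3234 and 3380.2 CPM at 24 h, 3417 and 3248 CPM at 48 h, 3294 and 2862 CPM at 72 h, and 3521 and 3785 CPM at 120 h, with no overlap with sham. At 168 h it was at 4555 and 4704 CPM, within the range of the sham pools. Serpina1c fell by 0.45 ± 0.13 at 24 h (adjusted p = 0.0312), 0.44 ± 0.13 at 48 h (adjusted p = 0.0203) and 0.55 ± 0.13 at 72 h (adjusted p = 0.0163) by edgeR. These calls were lost in 12, 8 and 5 of 28 alternatives, including at each time without sham pool 2 (adjusted p = 0.188, 0.124 and 0.116). At 24 h they were also lost without sham pool 1, either 24 h pool, 48 h pool 2 or 120 h pool 2, at 48 h without either 48 h pool, and at 72 h without 72 h pool 2.

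Serpina1a and Serpina1b were not called against sham at any time. Serpina1a ranged from 2752 CPM (24 h pool 1) to 4129.8 CPM (0.5 h pool 1), with sham at 3432 and 3724 CPM. Serpina1b ranged from 3925 CPM (24 h pool 1) to 5413 CPM (0.5 h pool 1), with sham at 4633 and 4914 CPM. Both were lowest in mean at 24 h, with -0.32 ± 0.14 for Serpina1a (adjusted p = 0.116) and -0.24 ± 0.12 for Serpina1b (adjusted p = 0.177) by edgeR. At 4 h Serpina1b stood at 0.03 ± 0.12 with TMM and at -0.35 by library totals alone (adjusted p = 0.0128). Between 4 and 24 h Serpina1a fell by 0.45 ± 0.14 (adjusted p = 0.0202) and Serpina1d by 0.53 ± 0.14 (adjusted p = 0.0113). Those steps depend on the scaling: by library totals alone they were 0.04 for Serpina1a, the opposite direction, and -0.03 for Serpina1d. They were also lost without 4 h pool 1 (0.0915 and 0.053) or 24 h pool 1 (0.0885 and 0.0507), and that of Serpina1a without 24 h pool 2 (0.0516).

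**Figure D3:**
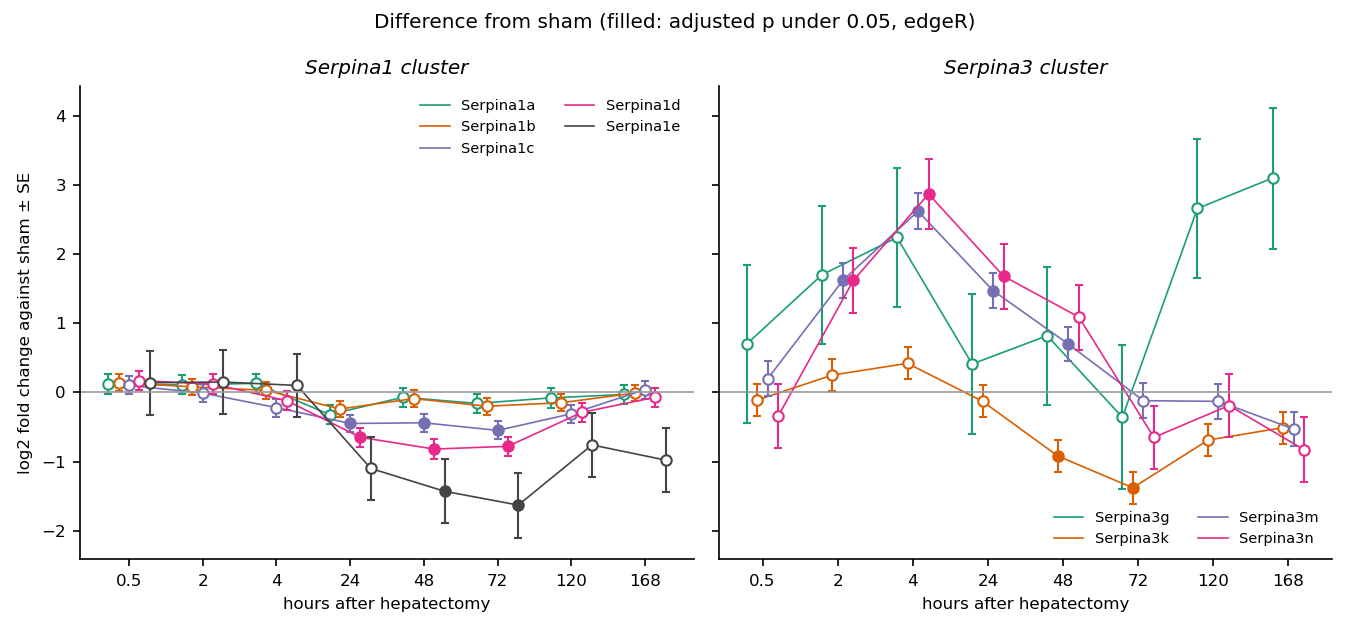
Log2 fold change against sham ± SE for the Serpina1 genes (left) and the Serpina3 genes (right) at each time in hours, where filled points had an adjusted p under 0.05 by edgeR. Serpina3m and Serpina3n are filled at 2, 4 and 24 h, and Serpina1c, Serpina1d, Serpina1e and Serpina3k at 48 and 72 h.

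Counted over the members, 0 of 9 were called at 0.5 h, where 0.204% of all genes tested were (by DESeq2 also 0 of 9, and by edgeR 0 at an unadjusted p under 0.05). At 2 h 2 were higher, against 4.61% of genes, and at 4 h 2 were higher, against 16.9%, with none lower (4.16% and 18.8% of genes were). At 24 h 2 were higher and 2 lower, against 7.87% and 9.46% of genes. At 48 h 1 was higher and 4 lower, against 18% and 18.9%, and at 72 h 0 were higher and 4 lower, against 6.16% and 6.42%. At 120 and 168 h 0 were called, where 0.775% and 5.75% of genes were; at an unadjusted p under 0.05 there were 3 at each time (Serpina3k and Serpina3g at both, Serpina1c at 120 h and Serpina3m at 168 h), and DESeq2 called 0 at either. Of the steps between times, 2 members rose from 0.5 to 2 h (6.67% of genes did), 1 from 2 to 4 h (5.63%), 3 fell from 4 to 24 h (17%) and 1 fell from 24 to 48 h (6.58%). In the later steps edgeR called 0 members, beside 3.67%, 1.16% and 0% of genes, while DESeq2 called 2 lower from 48 to 72 h and 2 higher from 72 to 120 h. The median log2 fold change of the members was 0.13 at 4 h and -0.55 at 72 h, beside 0.01 and -0.02 over all genes tested.

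The promoters of a gene that fell and a copy that was not called were nearly the same. RefSeq (GRCm38.p6) gives 7 of the 9 members a promoter, and Serpina3k and Serpina3m have no entry. The bases before the gene start of Serpina1b (chr12:103738190-103738439, minus strand) and of Serpina1e (chr12:103956898-103957147, minus strand) are shown with those of Serpina3n (chr12:104406458-104406645, plus strand, without 62 bases that lie in its gene model). Capitals mark matches on either strand to TTNNGNAA (named for C/EBP), TGANTCA (AP-1) or TTCNNNGAA (STAT).

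Serpina1b: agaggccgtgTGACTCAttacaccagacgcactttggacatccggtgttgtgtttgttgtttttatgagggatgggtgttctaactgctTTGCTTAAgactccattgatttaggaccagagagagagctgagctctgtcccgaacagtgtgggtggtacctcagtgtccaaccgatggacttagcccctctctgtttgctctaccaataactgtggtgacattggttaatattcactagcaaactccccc
Serpina1e: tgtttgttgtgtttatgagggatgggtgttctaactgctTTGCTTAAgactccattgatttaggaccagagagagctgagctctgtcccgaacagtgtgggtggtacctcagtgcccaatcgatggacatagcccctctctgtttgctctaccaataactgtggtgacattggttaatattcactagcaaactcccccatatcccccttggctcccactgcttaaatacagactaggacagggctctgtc
Serpina3n: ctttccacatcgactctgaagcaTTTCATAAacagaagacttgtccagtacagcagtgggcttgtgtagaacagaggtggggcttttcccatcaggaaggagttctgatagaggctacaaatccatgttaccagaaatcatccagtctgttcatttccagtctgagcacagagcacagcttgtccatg

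Where these windows align, Serpina1b and Serpina1e shared 98.0% of bases, and the 10 Serpina1 pairs shared 92.1% to 98.0%. The window of Serpina1e is shifted against the others, because RefSeq starts that gene further along, so its bases cover another part of the shared region. C/EBP letters stood in Serpina1b, Serpina1d, Serpina1e, Serpina3g and Serpina3n, beside 36.8% of all promoter windows of the same 250 bases. AP-1 letters stood in Serpina1a, Serpina1b, Serpina1c and Serpina1d, beside 6.75% of windows, and STAT letters in Serpina3g, beside 7.02%. A match is a description of letters, not a site, and a missing match says only that the letters are not in the window. The matches shown do not overlap one another, a second C/EBP match of Serpina3n lies in the bases left out, and the longer HNF1 motif (in 0.0548% of windows) matched none of the 7.

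Summed over the cluster, the Serpina1 reads stayed near or above sham up to 4 h and lay below it in every library from 24 h on. The sum stood at 34564 and 35398 CPM in sham, 40776 and 36209.7 CPM at 0.5 h, 34895 and 40692 CPM at 2 h, and 36357 and 35284 CPM at 4 h. It was then 21482 and 20652 CPM at 24 h, 20631 and 19514 CPM at 48 h, and 23002 and 13807 CPM at 72 h. At 120 h it was 29504 and 20723 CPM, and at 168 h 26284 and 24843 CPM. As a ratio of means to sham this was 1.02 at 4 h, then 0.602 (24 h), 0.574 (48 h), 0.526 (72 h), 0.718 (120 h) and 0.731 (168 h). The sums were given no test. Beside them, the hepatocyte list had 92508 and 78629 CPM at 24 h against 125603 and 132819 CPM in sham. Of its 10 genes 0 were higher and 4 lower at 24 h, where 7.87% and 9.46% of all genes were. Its part in the sums was not tested. At 4 h the log2 ratio was 0.03 with TMM and -0.34 by totals alone, so its direction there depends on the scaling.

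The Serpina3 sum had 20022 and 21322 CPM in sham, 27326 and 28007 CPM at 2 h, 38445 and 35372 CPM at 4 h, and 24497 and 20348 CPM at 24 h. It then had 11534 and 15120.1 CPM at 48 h, 10627 and 6345 CPM at 72 h, 14552 and 12091 CPM at 120 h, and 15617 and 13133 CPM at 168 h. The ratio to sham was thus 1.79 at 4 h and 0.410 at 72 h. At 4 h the Serpina3 sum of 36908 ± 2173 CPM overlapped the Serpina1 sum of 35821 ± 759 CPM (SD), although in sham it had been 20672 ± 919 against 34981 ± 589 CPM. Both sums hold unique reads only, which reach less of the Serpina1 copies, so their levels are not directly comparable. The pools overlapped sham at 24 h for the Serpina3 sum and at 2 and 4 h for the Serpina1 sum.

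Within the clusters the shares differed between times. Serpina1e held 54.0 ± 1.79% of the Serpina1 reads in sham (SD) and 56.4 ± 1.82% at 4 h. It held 41.7 ± 3.87% at 24 h, 34.9 ± 1.69% at 48 h, 30.0 ± 17.7% at 72 h, 42.8 ± 12.4% at 120 h, and finally 37.5 ± 2.25% at 168 h. The share of Serpina1b was 13.6 ± 0.339% in sham and 22.4 ± 0.985% at 48 h, beside the lower sum. Serpina3k held 92.2 ± 3.28% of the Serpina3 reads in sham and 68.9 ± 4.91% at 4 h, when Serpina3n held 24.9 ± 4.56% against 6.02 ± 2.87% in sham. At 168 h Serpina3k was back at 92.8 ± 2.02%. Shares of reads are open to the same uncertain split as the counts, and they leave out reads that fit several copies.

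**Figure D4:**
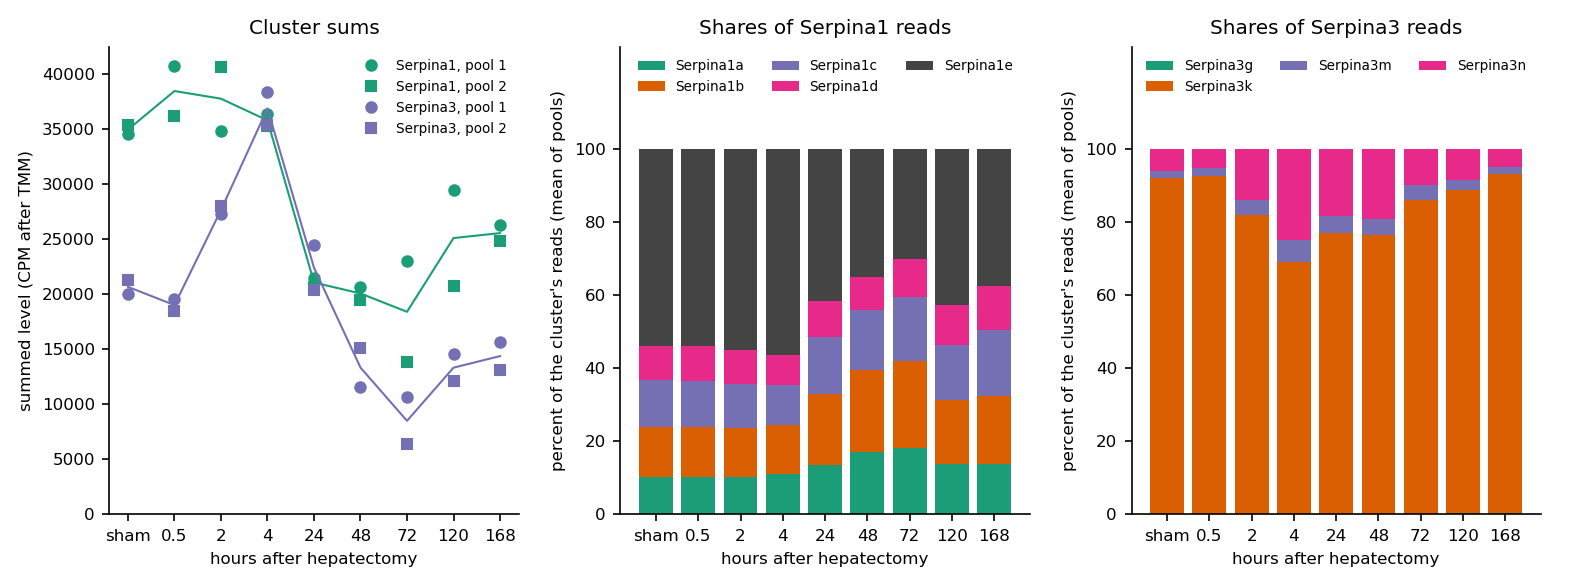
Left, summed level of each cluster in CPM after TMM scaling, with 1 point per pool and a line through the means. Middle and right, the mean percent of a cluster's reads held by each member at each time in hours; Serpina1e shrinks from 54.0% in sham to 34.9% at 48 h, and Serpina3n grows from 6.02% to 24.9% at 4 h.

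The pools of a group were close for most members and far apart for a few. Over all genes tested the SD of the log2 difference between the pools of a group was 0.242 to 0.390. Serpina1e differed by 2.02 between the 72 h pools (90711 and 23013 reads) and by 1.11 between the 120 h pools, and Serpina3k by 0.82 at 72 h. Serpina1a, Serpina1b and Serpina1c differed by at most 0.24 in size in any group, and Serpina1d by at most 0.40. Serpina3n differed by -1.10 in sham, 0.79 at 0.5 h and -1.58 at 48 h, and Serpina3m by -0.59 in sham and -0.76 at 48 h. Pool 2 was the higher for both genes in sham and at 48 h, and pool 1 at 0.5 h.

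**Figure D5:**
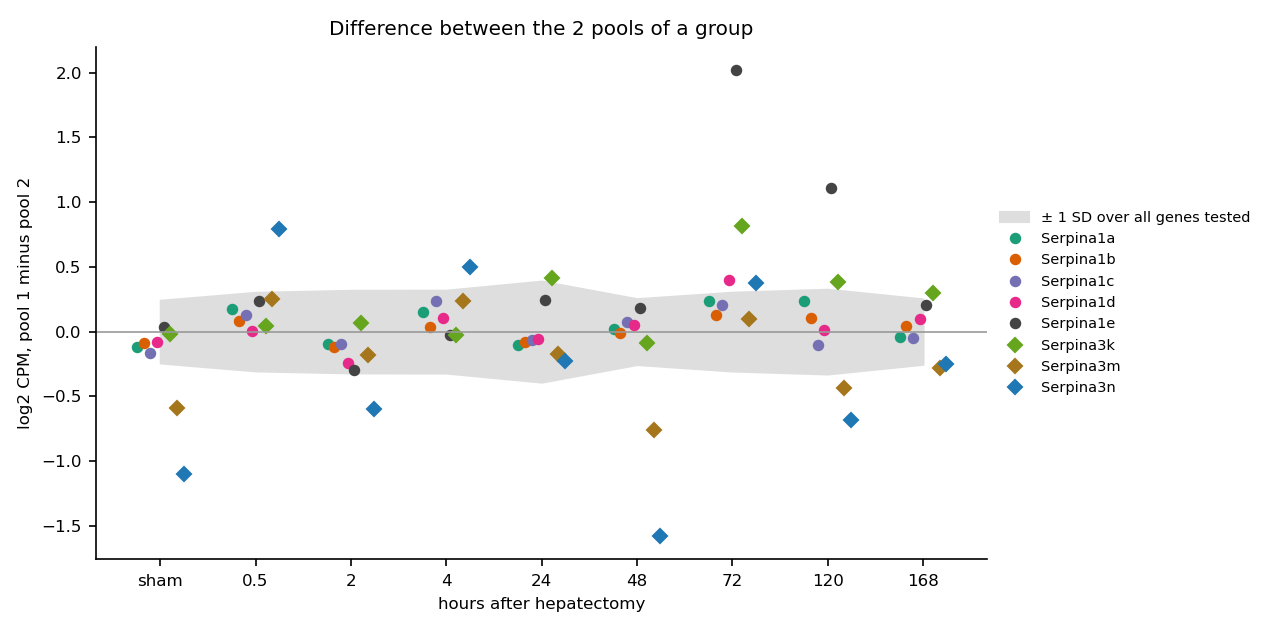
Log2 CPM of pool 1 minus pool 2 in each group for the 8 members listed in all libraries (circles Serpina1, diamonds Serpina3), where the grey band is ± 1 SD of that difference over all genes tested. Serpina1e at 72 h (2.02) and 120 h (1.11) and Serpina3n in sham (-1.10) and at 48 h (-1.58) lie far outside it.

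Markers of other cells moved with some of these pools and not with others. In 72 h pool 2, where Serpina1e and Serpina3k were lowest, the stellate cell and fibroblast list (7 of 7 genes) summed to 565 CPM against 312 CPM in 72 h pool 1, and the cholangiocyte list (6 of 6, Cftr at 0 in some complete library) to 105 against 38.1 CPM. The hepatocyte list was at 146152 and 165950.0 CPM in pools 2 and 1. At 120 h, where Serpina1e was again lower in pool 2, both other lists went the opposite way. In pools 1 and 2 the stellate cell and fibroblast list had 337 and 293 CPM, and the cholangiocyte list 47.1 and 34.0 CPM. In 48 h pool 2, where Serpina3n was high, the neutrophil and monocyte list (12 of 13) summed to 82.5 CPM against 18.4 CPM in pool 1. That list was at 17.1 CPM in sham pool 1, 159 and 69.2 CPM at 4 h, and 8.40 to 31.0 CPM from 72 h on. At 24 h it had 10.6 and 68.8 CPM in pools 1 and 2, while Serpina3n differed by only -0.22 between them. In the same list Ngp, Camp and Ltf were at 0 in some complete library. The part of these cells in the results was not tested.

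Serpina3g, which encodes an inhibitor of lysosomal cysteine proteases known from leukocytes, was scarce and followed its own course. It had 51 reads (6.36 CPM) in sham pool 1, and in sham pool 2 and 0.5 h pool 1 it was unlisted, which allows up to 6.49 and 19.1 CPM by library total. It had 10.4 CPM in 0.5 h pool 2, 17.6 and 23.7 CPM at 2 h, 31.4 and 28.9 CPM at 4 h, 4.28 and 12.6 CPM at 24 h, 6.43 and 16 CPM at 48 h, and 5.23 and 4.66 CPM at 72 h. At 120 h the pools had 13.0 and 67.9 CPM (112 and 580 reads) and at 168 h 23.8 and 85.2 CPM (214 and 779 reads). Both pools at 2, 4, 120 and 168 h were above sham pool 1 and the bound for sham pool 2. So was 0.5 h pool 2. At 120 and 168 h pool 2 was the higher. By edgeR in 16 libraries Serpina3g differed over the whole course (adjusted p = 0.0164). Against sham no single time passed: 2.24 ± 1.01 at 4 h (adjusted p = 0.16), 2.66 ± 1.01 at 120 h (adjusted p = 0.355) and 3.10 ± 1.02 at 168 h (adjusted p = 0.149), where 15.5%, 0.107% and 0.082% of the 12199 genes were called. The step from 72 to 120 h was 3.03 ± 0.78 (adjusted p = 0.0847).

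Beside the late values of Serpina3g, the Kupffer cell and macrophage list (9 of 10 genes) summed to 1052 and 1257 CPM at 120 h and 1268 and 1568 CPM at 168 h, against 598 and 609 CPM in sham, and 24 h pool 2 had 1275 CPM. In the 16 libraries used for Serpina3g 0 of 9 of its genes were called against sham at 120 h and 0 at 168 h (medians 0.82 and 1.04), while in 18 libraries 2 of 7 rose at 120 h and 5 of 7 at 168 h (medians 0.71 and 1.0). From 72 to 120 h 5 of 9 rose in 16 libraries, where 48 of 12199 genes did: Cd5l, C1qa, C1qb, Vsig4 and Clec4f, named after their values were seen. The T, NK and B cell list summed to 10.8 to 16.2 CPM at those times, with Cd3e and Ncr1 among the genes at 0 in some complete library. Of 18 interferon-inducible genes tested in 16 libraries 0 were called at 120 h and 0 at 168 h, with medians of 1.17 and 1.34 beside 0.04 and 0.07 over all genes. From 72 to 120 h 3 of the 18 rose, with median 1.88: Irf7 (2.71 ± 0.41), Gbp3 (2.51 ± 0.51) and Irgm1 (2.22 ± 0.46), likewise named after their values were seen. In 18 libraries 7 were tested, of which, against sham, 0 rose at 120 h and 1 at 168 h, beside 19 and 118 of all 4906 genes. From 72 to 120 h 2 rose, beside 40 of the 4906, with median 2.03. At the time with most calls, 48 h, 3 of the 7 fell, where 18.9% of all genes did. They were Irf7, an interferon regulatory factor (-1.39 ± 0.42), and the interferon-induced GTPases Iigp1 (-1.96 ± 0.60) and Irgm1 (-1.41 ± 0.44). Their part in the Serpina3g values was not tested.

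Other genes of the Serpina3 cluster were tested in 16 libraries, where sham was pool 1 alone. That pool was the lower sham pool for Serpina3n and Serpina3m. Their 4 h estimates in 16 libraries were 3.5 and 2.92, against 2.87 and 2.62 in 18. Serpina3c rose by 2.25 ± 0.71 (adjusted p = 0.0464), Serpina3h by 2.86 ± 0.81 (adjusted p = 0.0293) and Serpina3i by 3.41 ± 0.93 (adjusted p = 0.0248) at 4 h by edgeR. Serpina3f was at 3.39 ± 1.16 (adjusted p = 0.0658) and again at 3.26 ± 1.15 at 168 h (adjusted p = 0.165), and Serpina3a stood at 1.22 ± 0.79 at 4 h (adjusted p = 0.334), so neither was called. Of 5 other clade A serpins in 18 libraries 2 rose and 1 fell at 4 h, beside 16.9% and 18.8% of all genes. The median was 0.50. Serpina10, the protein Z-dependent inhibitor of factor Xa, rose by 2.02 ± 0.31 (adjusted p = 0.000235), and Serpina11 by 0.50 ± 0.16 (adjusted p = 0.024). Serpina12, the adipokine vaspin, fell by 1.48 ± 0.40 (adjusted p = 0.0107). In 16 libraries 12 other clade A serpins were tested, at 4 h against sham pool 1 alone.

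Serpins of other clades had most calls at 24 h. Of 5 tested in 18 libraries, 0 rose and 4 fell at 24 h, where 9.46% of all genes fell, with median -0.54. They were Serpinf1, or pigment epithelium-derived factor (-0.85 ± 0.14, adjusted p = 0.00217), Serpind1, heparin cofactor II (-0.48 ± 0.11, adjusted p = 0.0087), Serpinc1, antithrombin (-0.54 ± 0.13, adjusted p = 0.0154), and Serpinf2, alpha-2 antiplasmin (-0.54 ± 0.17, adjusted p = 0.0405). At 48 h, where 18.9% of all genes were lower, 3 of these still were, Serpinf1 at -0.63 ± 0.14, Serpinc1 at -0.51 ± 0.13 and Serpind1 at -0.30 ± 0.11.

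Of 4 proteases that these serpins can inhibit, or of those families, 1 rose and 1 fell at 4 h. Of all genes 16.9% rose and 18.8% fell. Ctsl, cathepsin L of the lysosome, rose by 1.5 ± 0.15 (adjusted p = 1.24e-05) and Klkb1, plasma kallikrein, fell by 0.87 ± 0.19 (adjusted p = 0.00354) by edgeR. At 48 h, where 18.9% of all genes fell, both had fallen, Klkb1 by 1.39 ± 0.20 and Ctsl by 0.51 ± 0.15.

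Of 13 transcription factors and signalling genes upstream of the acute phase response, 4 rose and 4 fell at 4 h, with median -0.02. Of all genes 16.9% rose and 18.8% fell there. Cebpb, a factor that activates acute phase genes, rose by 1.13 ± 0.17 (adjusted p = 0.000243), and Stat3, which carries the interleukin-6 signal, by 1.30 ± 0.21 (adjusted p = 0.000331) by edgeR. Cebpa, a factor of differentiated hepatocytes, fell by 0.80 ± 0.16 (adjusted p = 0.00197). At 24 h 0 of the 13 rose and 2 fell, beside 7.87% and 9.46% of all genes.

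Of 21 other acute phase proteins 18 rose and 0 fell at 4 h, with median 2.08, beside 16.9% of all genes higher and a median of 0.01. The fibrinogen chains Fgg (2.11 ± 0.23), Fgb (2.02 ± 0.25) and Fga (2.08 ± 0.27) and Apcs, serum amyloid P (3.55 ± 0.55), are named as the called genes with the smallest p. Serpina3n (2.87) and Serpina3m (2.62) lay above that median and Serpina3k (0.42) and the 5 Serpina1 genes (-0.22 to 0.13) below it at 4 h. At 24 h 2 of the 21 rose, beside 7.87% of all genes, with median 0.82. At 72 h 0 rose and 2 fell, beside 6.16% and 6.42%, with median -0.56.

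The genes whose log2 CPM was most like a member's were found by Pearson's r over the libraries. As descriptions over 18 libraries that share groups, these were Lrg1 (0.953), Nnmt (0.953) and Itih4 (0.938) for Serpina3n, and Nnmt (0.978), Fh1 (0.950) and Lrg1 (0.946) for Serpina3m. Serpina3k was nearest to Eif4ebp3 (0.932), Slc30a10 (0.926) and Mup3, a major urinary protein (0.914). The Serpina1 sum was nearest to C6 (0.953) and C8b (0.930), both genes of the terminal complement pathway, and Dirc2 (0.904). Over 16 libraries Serpina3g was nearest to its neighbour Serpina3f (0.954), with which it shares sequence, then H2-D1, a class I histocompatibility gene (0.937), and Fcgr4, an Fc receptor (0.930).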

How the data were processed

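Liver RNA enriched for poly(A) was sequenced in 18 libraries, each a pool of 3 mice. The authors deposited, per the file headers, the count of uniquely mapped reads per gene, the RPKM made from that count, the gene length and the header total, and the percent of the gene length covered. The build is mm10, per the submitters' processing notes, and the sources used here do not give aligner, counter, strand or read length. Depth was 7.78 to 9.16 times 1000000 reads per library.

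Counts were scaled by TMM and tested in R 4.3.3 with edgeR 4.0.16 (quasi-likelihood F test, Benjamini-Hochberg adjustment within a contrast, threshold 0.05), with all groups in 1 fit without a replicate block. The fit of 18 libraries held the 4906 genes listed in every table (9 residual degrees of freedom). That of the 16 complete libraries held 12199 genes (7 degrees of freedom) and was used for Serpina3g. SE is the fold change divided by the root of F. DESeq2 1.42.0 and limma 3.58.1 served as alternatives, with other filters, scalings and left-out libraries. The edgeR, DESeq2 and limma steps were tested on simulated data.

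All 9 members are named. From each gene list at most 4 called genes are named, smallest adjusted p first, at the time with most calls, plus list genes of the same cluster; the 3 most alike genes by Pearson's r had a mean of at least 10 CPM. Members and lists were chosen with earlier results of these data known. Sequence work used Python 3.11.15 and Biopython 1.88, with words of 50 and 100 bases. Protein sequences were not used here, and a few list genes are not reported here.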

Additional observations from a re-analysis of the deposited data

How the results depend on the processing

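Of 672 values of the 24 member calls under alternatives, 569 were still called, 100 were not and 3 turned direction. The calls kept under all 28 alternatives were Serpina1d at 48 h, Serpina3k at 72 h, Serpina3n at 4 h, Serpina3m at 2, 4 and 24 h, and the Serpina3m steps from 0.5 to 2 h and from 4 to 24 h. Among the alternative values of member differences that were not called, 74 were called in the same direction. A difference counts there once for each alternative that called it. With 2 pools a group and 2 short tables, a change in a scarce gene such as Serpina3g is resolved only when large.

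By totals alone, and by limma on log2(RPKM + 1) or log2(RPKM + 0.1), Serpina1a from 4 to 24 h turned to 0.04 and Serpina1b at 4 h to -0.35; the same 3 settings called 3 members lower at 4 h, 1 at 24 h, and between times 2 (2 to 4 h), 1 (4 to 24 h) and 2 (24 to 48 h). By totals alone 1 member was also higher at 2 h, 2 were higher at 48 h and 1 lower from 48 to 72 h, and the sums stood at -0.05 (2 h), -0.34 (4 h), -0.62 (24 h) and -0.64 (48 h) for Serpina1 and 0.26 (2 h) and 0.46 (4 h) for Serpina3. Limma on log2 CPM called 2 lower from 24 to 48 h. DESeq2 called 2 higher from 72 to 120 h, and lower 6 (4 to 24 h), 2 (24 to 48 h) and 2 (48 to 72 h). With unlisted genes as 0 and no filter on low counts, changed together, there were 1 higher at 2 h, 1 at 24 h, 0 at 48 h and 0 from 2 to 4 h, and 0 lower at 24 h, 1 at 48 h, 2 at 72 h, 1 (4 to 24 h) and 0 (24 to 48 h). With 16 libraries there were 2 higher at 48 h, and 0 lower at 24 h, 1 at 48 h, 1 at 72 h, 1 (4 to 24 h) and 0 (24 to 48 h). Fitting the compared groups by themselves gave 0 higher at 48 h, 1 at 168 h and 2 from 2 to 4 h, and 1 lower at 24 h, 2 at 72 h, 2 at 168 h and 0 from 24 to 48 h. The cause was not tested.

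Leaving out 1 library at a time gave 1 to 2 members higher at 2 h, 1 to 2 at 24 h, 0 to 2 at 48 h, and between times 1 to 2 (0.5 to 2 h), 0 to 2 (2 to 4 h) and 0 to 3 (72 to 120 h). It gave 0 to 3 lower at 24 h, 1 to 4 at 48 h, 1 to 4 at 72 h, and between times 1 to 5 (4 to 24 h), 0 to 1 (24 to 48 h) and 0 to 2 (48 to 72 h). The fewest lower were 0 at 24 h without sham pool 2, 1 at 48 h without 48 h pool 1 and 1 at 72 h without 72 h pool 2. Over the whole course 6 to 7 members were called. The Serpina1 sum ranged from 0.05 to 0.22 at 0.5 h, 0.00 to 0.22 at 2 h, 0.01 to 0.06 at 4 h, -0.76 to -0.70 at 24 h, -0.84 to -0.76 at 48 h, -1.34 to -0.60 at 72 h, -0.76 to -0.25 at 120 h and -0.49 to -0.41 at 168 h. The Serpina3 sum ranged from -0.17 to -0.07, 0.38 to 0.47, 0.77 to 0.90, -0.02 to 0.24, -0.84 to -0.45, -1.70 to -0.96, -0.77 to -0.51 and -0.65 to -0.40 at the same times.

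The difference of pool 1 minus pool 2 was correlated over genes between groups, to see whether same-numbered pools deviate together. Over 36 pairs of groups this correlation was -0.546 to 0.530, median 0.043. It was over 0.1 in 14 pairs and under -0.1 in 9, so the median does not settle whether pools of some groups were paired. With the replicate block 7 members were lower from 4 to 24 h, 1 was higher from 72 to 120 h and 2 were lower from 24 to 48 h.

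Over all genes, DESeq2 called 124 at 0.5 h against 10 by edgeR, 966 against 617 at 72 h, 198 against 38 at 120 h and 854 against 282 at 168 h. Counting unlisted genes as 0 with no filter, so that 17180 genes were tested in place of 4906, gave 940 against 1749 at 4 h, 347 against 850 at 24 h, 903 against 1806 at 48 h and 258 against 617 at 72 h. The compared groups by themselves gave 354 at 24 h and 1021 at 168 h, and limma on log2(RPKM + 1) gave 2638 at 4 h. By totals alone 12.2% of the genes called at 4 h were higher, against 47.4% with TMM.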
